A study of Mus musculus with 16 samples.

Results

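RNA of tumours treated with an antibody against PD-L1 alone was compared with that of control tumours in 8 of the 16 libraries of the series, 4 titled anti-PDL1 and 4 titled control. The libraries were chosen by their titles, and every gene was considered. All tumours came from subcutaneous grafts of MC38, a colon carcinoma line of the mouse. The other 8 libraries, 4 of exercise and 4 of exercise with anti-PDL1 (called the combination), shared the estimate of the spread and show the antibody difference in exercised tumours. The labels give no agent for the controls and no host strain, sex, age, antibody clone, dose or schedule. The series title speaks of blocking PD-1, whereas the sample titles and the design text name PD-L1, which is followed here. The labels do not say whether the libraries of a group are separate animals, so the p-values reflect the spread between libraries, some of which may be technical.

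PD-L1, encoded by Cd274, is a surface ligand that binds PD-1 on activated T cells and restrains them. Antibodies against it release that restraint. Activated cytotoxic T cells and natural killer cells secrete interferon gamma, which acts through JAK kinases and switches on genes of antigen presentation, PD-L1 itself and GTPases that act against intracellular pathogens. Peptides for presentation are cut by the immunoproteasome, carried into the endoplasmic reticulum by the TAP transporter and loaded onto MHC class I molecules, which cytotoxic T cells read on the cell surface.

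Expression was given as FPKM, fragments per kilobase of transcript relative to all mapped fragments of the library, for 18480 entries per library. Fold changes and standard errors below are differences of means on the log2(FPKM + 1) scale, anti-PD-L1 minus control, which understates changes of genes with low values. With at least 1 FPKM in at least 4 of the 16 libraries, 11868 genes were tested with limma. The FPKM of the 8 libraries summed to between 487269 and 529732, and their read depth is unknown. The first principal component of the 8 libraries took up 47.6% of their variance. It placed control 1 at -30.7 and control 2 at -42.1, controls 3 and 4 at -3.8 and 3.6, and the antibody libraries between 12.5 and 26.6. Controls 1 and 2 thus stood apart from the others, and list medians and fold changes that moved by over 1.5 times or changed sign without them are mostly given both ways. The labels name no batch or date. Epithelial markers expected of a colon carcinoma were mostly low in both groups: Epcam stayed at or below 0.17 FPKM and Krt8 at or below 0.14 in all 8 libraries, while Lgals4, a galectin of the gut epithelium, measured 3.65 to 14.3 FPKM. Of 11 intestinal epithelial genes with an entry, 3 reached the level for testing, namely Lgals4, Krt19 and Cdh1.

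At an adjusted p under 0.05 in limma, 19 genes were higher in anti-PD-L1 tumours, 0.16% of those tested, and 11 were lower, 0.0927%. The higher genes were led by MHC class I presentation and interferon-induced genes. The lower genes were of mixed function and included a pair of sterol synthesis enzymes and a pair of genes expressed in dividing cells. In each of the 30 genes, the 4 libraries of one group lay on one side of the 4 of the other. Such a separation was seen with the antibody libraries on top in 3.57% of all tested genes and with the controls on top in 7.26%. The count of genes past the threshold turned on single libraries: it was between 6 (without control 2 or antibody library 2) and 768 (without control 4), and 4 without controls 1 and 2. H2-T10, H2-T22, Psmb9 and Tap1 passed in every alternative run for them, and 26 of the 30 passed in most of theirs. The median log2 fold change of all tested genes was -0.04, and 42.3% were above 0.

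**Figure D1:**
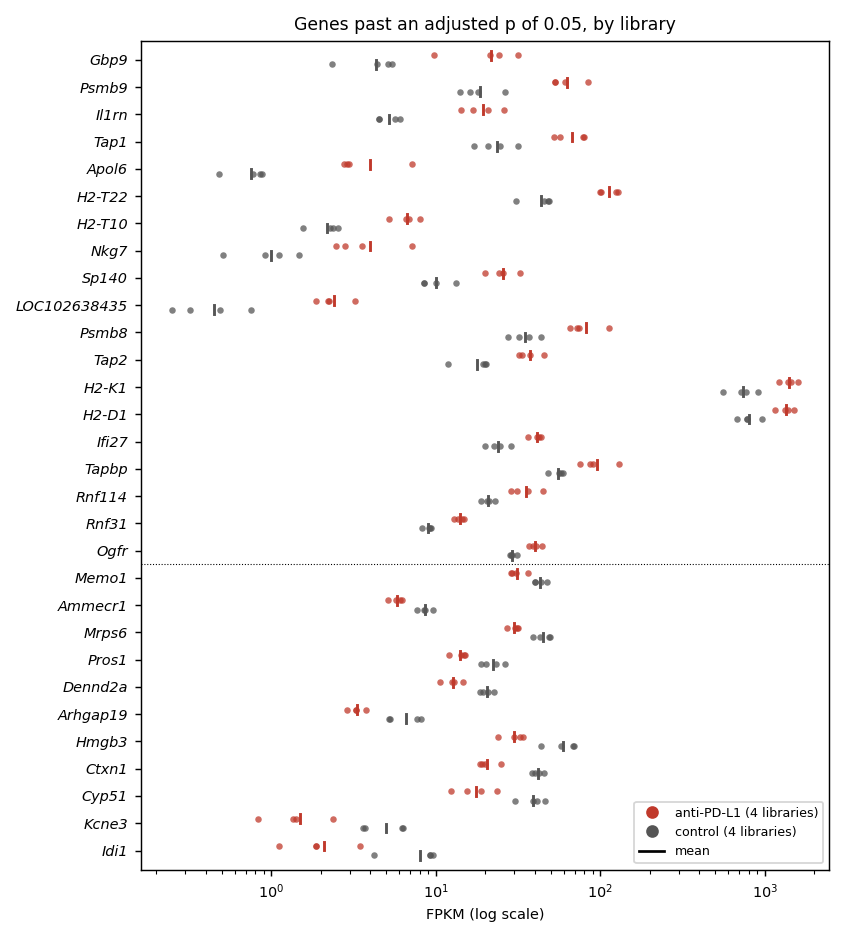
FPKM of the 30 genes past an adjusted p of 0.05 in each of the 4 control (grey) and 4 anti-PD-L1 (red) libraries, on a log axis, with a vertical bar at each group's mean. Genes are ordered by log2 fold change, the 19 higher ones stand above the dotted line, and in every row the red and grey points do not overlap.

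Of 13 genes that make and load class I peptides, 5 rose. Here and below, FPKM are given in the order of libraries 1 to 4, with the controls before the word against and the antibody libraries after it where the groups are not named. Psmb9, a catalytic subunit of the immunoproteasome, measured 26.6, 14.1, 16.1 and 18.1 FPKM in controls 1 to 4 and 84.8, 52.8, 53.4 and 61.3 in anti-PD-L1 libraries 1 to 4. Each antibody library was above each control, and antibody library 1 was the highest. Its log2 fold change was 1.71 ± 0.21 (standard error, n = 4 each, adjusted p = 0.002 in limma). Tap1, a subunit of the peptide transporter, measured 31.6, 17.1, 20.9 and 24.6 FPKM in the controls and 79.99, 52.03, 57.1 and 78.3 in the antibody libraries. It rose by 1.48 ± 0.20 on the log2 scale (adjusted p = 0.00368), again with no overlap.

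Psmb9 and Tap1 lie head to head on chromosome 17 (Psmb9 at 34182030 to 34187330 and Tap1 at 34187556 to 34197225, by RefSeq on GRCm38.p6). The 225 bases between their annotated starts are shown because both genes rose and both starts face this stretch. It is printed on the plus strand of chr17:34187331-34187555, from RefSeq, with nothing marked in capitals.
Psmb9 to Tap1: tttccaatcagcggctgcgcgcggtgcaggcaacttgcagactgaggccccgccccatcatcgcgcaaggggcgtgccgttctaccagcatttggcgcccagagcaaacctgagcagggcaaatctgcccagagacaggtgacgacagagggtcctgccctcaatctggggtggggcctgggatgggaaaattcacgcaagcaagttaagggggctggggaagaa
Read left to right it runs from the start of Psmb9 to the start of Tap1. None of the motifs described below was present in these letters.

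The neighbours of this pair rose as well. Psmb8, another immunoproteasome subunit (chromosome 17, 34198195 to 34201454), measured 43.7, 27.6, 32.2 and 36.8 FPKM in the controls and 113, 74.7, 65.7 and 72.6 in the antibody libraries, a rise of 1.18 ± 0.20 (adjusted p = 0.0328). Tap2, the partner of Tap1 in the transporter (chromosome 17, 34204479 to 34216321), measured 19.3, 11.9, 20.3 and 19.8 against 45.6, 37.5, 32.2 and 33.5, a rise of 1.04 ± 0.18 (adjusted p = 0.0338). Control 2 was the lowest library for both genes. Tapbp, or tapasin, which bridges the transporter and the class I molecule (chromosome 17, 33919478 to 33929290), measured 59.7, 47.9, 56.4 and 58.01 against 129.7, 90.8, 75.5 and 86.3, a rise of 0.75 ± 0.14 (adjusted p = 0.0338). Of 13 immunoproteasome and peptide loading genes tested, 5 rose past the threshold, 12 had a fold change above 0 and the median was 0.52, and it was also 0.52 without controls 1 and 2.

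Of 11 class I genes, 4 rose with them. H2-K1, a classical class I heavy chain, measured 903, 557, 717 and 768 FPKM in the controls and 1443, 1218, 1373 and 1591 in the antibody libraries. The groups did not overlap. H2-K1 rose by 0.95 ± 0.17 (adjusted p = 0.0338) and H2-D1, the other classical heavy chain measured, by 0.76 ± 0.14 (adjusted p = 0.0369), with 960.1, 673, 774 and 781 FPKM in the controls and 1333, 1157, 1374 and 1503 in the antibody libraries. H2-T22, a non-classical heavy chain that gamma delta T cells can recognise, measured 48.01, 30.8, 45.7 and 48.8 against 129, 99.6, 101 and 124, a rise of 1.38 ± 0.16 (adjusted p = 0.00166). The highest control of H2-T22 was at 48.8 FPKM and its lowest antibody library at 99.6. H2-T10, which RefSeq lists as a transcribed pseudogene, measured 2.28, 1.56, 2.37 and 2.54 against 8.01, 6.9, 5.21 and 6.61, a rise of 1.27 ± 0.15 (adjusted p = 0.00166). Class I genes are close copies of each other and can share reads, so the split of these values among them is uncertain.

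B2m, the light chain of every class I molecule, did not pass (log2 fold change 0.66 ± 0.18, adjusted p = 0.0814). It measured 1341, 889.98, 1179 and 1227 FPKM in the controls and 2159.8, 1673, 1205 and 2445 in the antibody libraries, and antibody library 3 lay within the range of the controls. Of 11 class I genes tested, B2m included, 4 rose past the threshold, all 11 had fold changes above 0, and the median was 0.92 and 0.91 without controls 1 and 2. Nlrc5, the transactivator of class I genes, measured 15.8, 8.98, 14.3 and 12.9 against 32.4, 26.4, 19.8 and 20.2 FPKM without overlap and did not pass (log2 fold change 0.87 ± 0.20, adjusted p = 0.058).

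A shared position accompanies this group. Of the 30 genes that passed, 10 are on chromosome 17, which holds 601 of the 11639 tested genes with a RefSeq symbol, or 5.16%. The 9 higher ones among them, namely Tapbp, H2-K1, Psmb9, Tap1, Psmb8, Tap2, H2-D1, H2-T22 and H2-T10, lie in the major histocompatibility complex between 33919478 and 36121444. The ends of that interval of 2.2 Mb were set by these 9 genes, so it holds them by construction. It holds 97 tested genes with a median log2 fold change of 0.06. Of the 97, 58 were above 0, against 42.3% of all tested genes. With the antibody libraries on top 17 were separated, these 9 included, against 3.57% of all tested genes.

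MHC class II genes, which present peptides to helper T cells, were less even. None of the 7 tested passed in limma, 1 was at an unadjusted p under 0.05, and all 7 had fold changes above 0 with a median of 0.57. H2-DMb1, part of the complex that exchanges class II peptides, measured 25.8, 29.4, 17.8 and 30.5 FPKM in the controls and 51.4, 33.9, 40.6 and 44.99 in the antibody libraries (log2 fold change 0.72 ± 0.15, adjusted p = 0.0559). H2-Aa, a class II chain, measured 73.03, 130.5, 25.8 and 42.8 against 173, 43.9, 86.4 and 174, and the groups overlapped. Controls 1 and 2 were the higher controls for H2-Aa, whose fold change was 0.85 with and 1.61 without them, and the median of the list was 1.33 without them. Antibody library 2 was the lowest antibody library for both genes.

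Interferon-induced GTPases had large fold changes with wide spread. Gbp9, a guanylate-binding protein, measured 4.41, 2.35, 5.14 and 5.41 FPKM in the controls and 31.6, 21.4, 9.72 and 24.1 in the antibody libraries, a rise of 2.03 ± 0.37 (adjusted p = 0.0377). Antibody library 3 was the nearest to the controls. Gbp2, which acts on vacuoles of intracellular pathogens, measured 35.1, 14.1, 23.7 and 29.01 against 214, 101, 74.3 and 110.3, with a log2 fold change of 2.21 ± 0.44 that just missed the threshold (adjusted p = 0.0559). Gbp4 and Gbp10 were in the same state (2.33 ± 0.50 and 1.52 ± 0.33, adjusted p = 0.0559 for both), and Gbp10 was listed at 0 in control 3. Of 9 guanylate-binding proteins tested, 1 rose past the threshold in limma. All 9 were at an unadjusted p under 0.05, as were 7.77% of all tested genes in the higher direction and 15.7% in the lower, all 9 were separated, and the median was 2.00.

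The immunity-related GTPases, which attack pathogen vacuoles in mouse cells, did not pass singly. Irgm1, the regulator of the family, measured 20.7, 13.8, 21.4 and 24.1 FPKM in the controls and 102, 61.4, 40.8 and 76.3 in the antibody libraries (log2 fold change 1.71 ± 0.35, adjusted p = 0.0559). Igtp measured 15.1, 5.42, 13.6 and 14.8 against 132, 56.1, 42.9 and 63.1 (2.45 ± 0.56, adjusted p = 0.0611). Control 2 was the lowest control and antibody library 1 the highest antibody library for both. Irgm2 and Tgtp2 followed with 2.25 ± 0.52 and 2.21 ± 0.55 (adjusted p = 0.0632 and 0.0729). Of 9 immunity-related GTPases tested, none passed in limma, all 9 were at an unadjusted p under 0.05 and separated, and the median was 2.21, or 1.83 without controls 1 and 2. Gbp genes, and Tgtp1 with Tgtp2, are close copies and can share reads.

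Promoters of these GTPases are shown because the family carries large fold changes and its members have motifs in common. Windows of 250 bases before to 50 after each RefSeq gene start were searched on both strands for the core of the interferon-stimulated response element, GAAANNGAA, and for the gamma-activated site, TTCNNNGAA. Of the 18 tested GTPases, 11 had a window in the RefSeq table. The response element core was present in 10 of these 11, against 9.76% of 27025 genes with a window, and the gamma-activated site in 7 of 11, against 9.55%. In no GTPase window did the matches of the 2 motifs overlap. Each stretch below is the strand of the gene in GRCm38.p6, ending at or before the start, with the match in capitals.
Gbp2, chr3:142620565-142620653, plus strand: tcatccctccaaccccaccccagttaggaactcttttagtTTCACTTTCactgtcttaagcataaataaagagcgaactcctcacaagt
Igtp, chr11:58199482-58199555, plus strand: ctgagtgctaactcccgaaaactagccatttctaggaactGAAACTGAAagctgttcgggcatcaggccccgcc
H2-T22, chr17:36042884-36042972, minus strand: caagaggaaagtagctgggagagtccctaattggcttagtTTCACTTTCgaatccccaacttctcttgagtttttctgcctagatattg
Psmb8, chr17:34198058-34198146, plus strand: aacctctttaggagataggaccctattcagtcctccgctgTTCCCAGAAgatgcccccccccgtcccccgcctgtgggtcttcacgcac
Irf1, chr11:53769884-53769972, plus strand: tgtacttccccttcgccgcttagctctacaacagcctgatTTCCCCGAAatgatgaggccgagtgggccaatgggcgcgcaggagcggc
The first 3 show the response element core, which stands on the opposite strand in Gbp2 and H2-T22, and the last 2 show the gamma-activated site. The Igtp stretch also holds a gamma-activated site, left in small letters just before the capitals. The match ended 49 bases before the start in Gbp2, 25 in Igtp, 181 in H2-T22, 88 in Psmb8 and 81 in Irf1. Among the 13 genes that rose and had a window, H2-T22 and Ogfr held the response element core, and Nkg7 and Psmb8 the gamma-activated site. A match describes the letters and not a bound factor.

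None of 20 receptors, kinases and factors of the interferon pathway passed in limma. Irf9, the DNA-binding part of the type I interferon complex, measured 12.1, 11.4, 14.7 and 15 FPKM in the controls and 37.2, 27.5, 21.7 and 30.3 in the antibody libraries (log2 fold change 1.06 ± 0.22, adjusted p = 0.0559). Irf1, a transcription factor induced by interferon gamma, measured 39.1, 26.6, 31.1 and 35.4 against 88.8, 70.1, 45.9 and 51.7 (0.90 ± 0.22, adjusted p = 0.07). The groups did not overlap for either gene, and antibody library 3 was the lowest antibody library in both. Of the 20, 15 had fold changes above 0, 8 were at an unadjusted p under 0.05, all of them higher, and the median was 0.33.

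Among antiviral effectors 1 of 23 passed. Ifi27, a small membrane protein induced by type I interferon, measured 22.5, 19.9, 28.8 and 24.6 FPKM in the controls and 42.7, 43.5, 36.5 and 41.4 in the antibody libraries, a rise of 0.76 ± 0.12 (adjusted p = 0.0195). Its 4 antibody libraries spanned a narrow range. Bst2, which tethers budding virus particles, measured 72.01, 56.6, 91.5 and 69.3 against 292, 232, 124 and 196 (1.48 ± 0.33, adjusted p = 0.058), Xaf1 had 1.69 ± 0.43 (adjusted p = 0.0742) and Zbp1, a sensor of left-handed nucleic acid, 1.59 ± 0.49 (adjusted p = 0.0986). All 23 had fold changes above 0, 15 were at an unadjusted p under 0.05, 6 were separated, and the median was 1.23, or 0.83 without controls 1 and 2. Antibody library 3 was within or near the control range for this list, with a median deviation from the mean of the 8 libraries of -0.46, while antibody library 1 was at 1.68 and controls 1 to 4 were at -0.96, -0.69, -0.18 and -0.44.

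Other genes that rose belong to groups in which the rest did not pass. Sp140, a chromatin reader of nuclear bodies, measured 8.54, 8.54, 10.1 and 13.2 FPKM in the controls and 32.6, 24.1, 20.03 and 25.8 in the antibody libraries, a rise of 1.26 ± 0.22 (adjusted p = 0.0338). It was the 1 of 10 nuclear body and PARP genes that passed, all 10 being above 0 with a median of 0.77. Apol6, an apolipoprotein L, measured 0.88, 0.86, 0.48 and 0.78 against 7.19, 2.79, 2.88 and 2.99, a rise of 1.43 ± 0.27 (adjusted p = 0.0377). Antibody library 1 was far above the other 3. Every control of Apol6 was below the 1 FPKM asked for testing, which among the 8 libraries compared only the antibody libraries reached. Of 6 apolipoprotein L genes tested it alone passed, and the median was 1.15; Apol9b measured 11.96, 9.16, 18.7 and 21.8 against 75, 51.6, 33.4 and 51.3 (1.73 ± 0.36, adjusted p = 0.0559).

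A pair of ubiquitin ligases rose. Rnf31, or HOIP, the catalytic subunit of the complex that builds linear ubiquitin chains in NF-kB signalling, measured 8.25, 9.31, 9.23 and 9.14 FPKM in the controls and 14.9, 13.8, 12.9 and 14.4 in the antibody libraries, a rise of 0.59 ± 0.08 (adjusted p = 0.00738). Within each group these values lay close together. Of 13 genes of NF-kB and linear ubiquitin tested, Rnf31 alone passed, 12 were above 0 and the median was 0.07. Tnfaip3, or A20, an NF-kB inhibitor, measured 2.29, 2.43, 2.16 and 2.58 against 3.88, 5.32, 3.33 and 4.66 (0.64 ± 0.19, adjusted p = 0.0949). Rnf114 measured 22.9, 18.9, 20.4 and 21.1 against 36.3, 31.2, 28.6 and 45.1 FPKM, a rise of 0.72 ± 0.13 (adjusted p = 0.0369). Ogfr, the opioid growth factor receptor, had the smallest rise of the 19, 0.45 ± 0.08 (adjusted p = 0.0338), from 28.2, 28.96, 31.3 and 28.6 FPKM in the controls to 44.5, 40.5, 37.1 and 39.2. LOC102638435, for which no annotation was matched, measured 0.49, 0.25, 0.32 and 0.75 against 3.24, 2.26, 2.22 and 1.88, a rise of 1.22 ± 0.21 (adjusted p = 0.0296). Like Apol6, it reached the 1 FPKM asked for testing in the antibody libraries and in no control.

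In the interleukin 1 family the antagonist rose. Il1rn, the secreted antagonist of the interleukin 1 receptor, measured 5.66, 4.54, 4.55 and 6.1 FPKM in the controls and 16.8, 20.8, 14.3 and 25.9 in the antibody libraries, a rise of 1.69 ± 0.31 (adjusted p = 0.0369). The lowest antibody library was at 14.3 FPKM and the highest control at 6.10. Il1rl1, the receptor of interleukin 33, measured 18.9, 6.23, 13.7 and 17.6 against 46.1, 55.6, 46.2 and 32.4 without overlap (1.68 ± 0.36, adjusted p = 0.0559). Il1a, an agonist of the same receptor that Il1rn blocks, measured 0.3, 0.17, 0.25 and 0.69 against 1.11, 5.23, 0.95 and 2.24 (1.17 ± 0.28, adjusted p = 0.0652), with antibody library 2 the highest. Of 11 family members tested, Il1rn alone passed, 7 were above 0, 3 were at an unadjusted p under 0.05 and the median was 0.21, or 0.33 without controls 1 and 2.

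**Figure D2:**
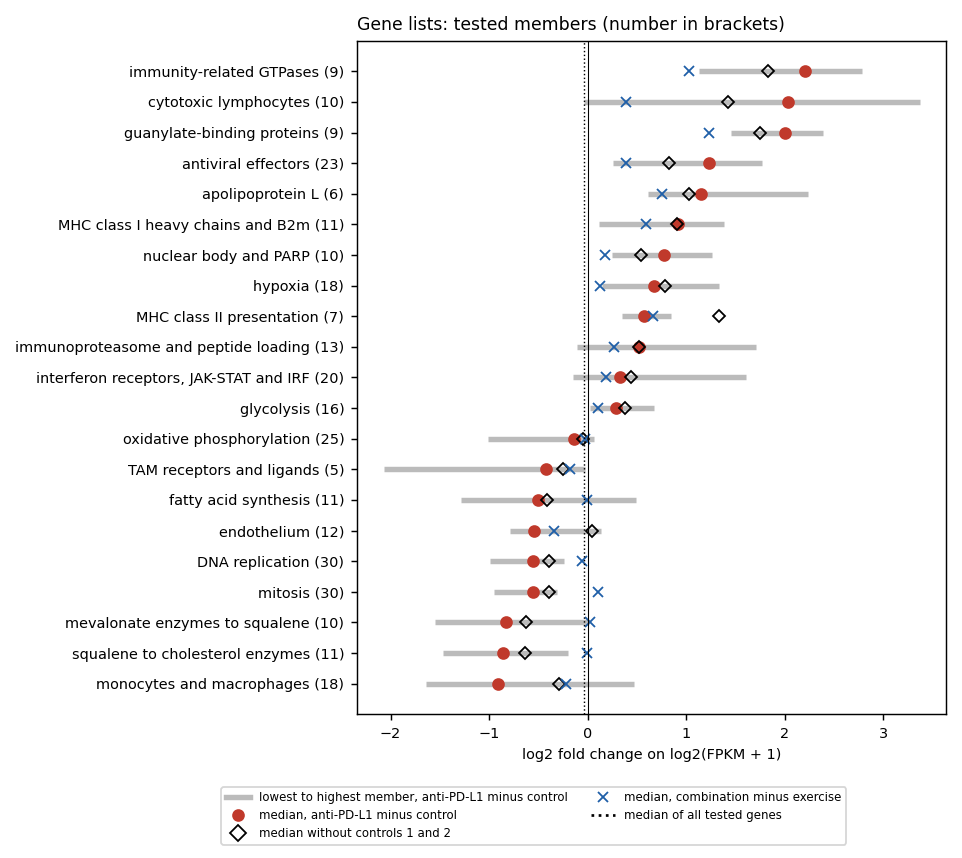
Log2 fold change on log2(FPKM + 1) for 21 gene lists. Grey bars span the lowest to the highest tested member, filled circles are medians of anti-PD-L1 minus control, open diamonds the same without controls 1 and 2, crosses the medians of combination minus exercise, and the dotted line the median of all tested genes (-0.04). The immunity-related GTPases lie farthest right at 2.21, and the endothelial and macrophage medians move toward 0 without controls 1 and 2.

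Genes of cytotoxic lymphocytes had large fold changes and wide spread. Nkg7, a granule protein of natural killer and cytotoxic T cells, measured 1.48, 0.51, 0.92 and 1.11 FPKM in the controls and 7.13, 2.8, 3.59 and 2.49 in the antibody libraries, a rise of 1.26 ± 0.25 (adjusted p = 0.0436). It passed in 10 of 25 alternative fits, the smallest share of the 30 genes. Gzmb, granzyme B, which triggers death of target cells, measured 2.11, 1.21, 4.14 and 2.66 against 16.8, 9.02, 15.7 and 5.8 (1.82 ± 0.41, adjusted p = 0.0588), and Prf1, perforin, measured 1.2, 0.41, 3.05 and 1.67 against 10.6, 5.51, 16.1 and 4.44 (1.93 ± 0.47, adjusted p = 0.0714). Antibody library 4 was the lowest of its group for both, and control 3 the highest control. Of 18 cytotoxic genes with an entry, 10 reached the level for testing, which counted treated libraries too. Genes low in the controls could thus enter through libraries where they were high. Of the 10, Nkg7 alone passed in limma and 9 were higher at an unadjusted p under 0.05, against 7.77% of all tested genes. With the antibody libraries on top 8 were separated, against 3.57%. The median was 2.03, or 1.42 without controls 1 and 2. In bulk tumours more cells of a type and more RNA per cell cannot be told apart, nor can fewer cells and less RNA per cell.

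The largest fold changes of all separated genes were in the granzyme cluster. Gzmg measured 4.48, 1.03, 18.8 and 17.1 FPKM in the controls and 103, 59.7, 139.5 and 50.5 in the antibody libraries (3.37 ± 0.88, adjusted p = 0.0762). Gzmf and Gzmd had 3.09 ± 0.87 and 3.00 ± 0.83 (adjusted p = 0.0857 and 0.0819). In controls 1 and 2 all 3 genes stood below 8 FPKM and in controls 3 and 4 above 16, and without controls 1 and 2 the fold changes were 2.12, 1.84 and 1.86. None of the 3 passed. Gzmc (2.13 ± 0.49, adjusted p = 0.0634; 1.39 without controls 1 and 2) did not pass either, and these neighbouring granzyme genes are close copies that can share reads. Tgtp1 (2.79 ± 0.75, adjusted p = 0.0807) and Iigp1 (2.52 ± 0.70, adjusted p = 0.0835), of the immunity-related GTPases, completed the 5 largest separated differences above 0, none of which passed.

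Genes of T cells themselves were near the limit of detection. Only Cd3g and Lck among 16 T cell markers reached the level for testing, and neither passed in limma (adjusted p = 0.173 and 0.396; Cd3g was at an unadjusted p under 0.05). Cd3g, part of the T cell receptor complex, measured 0.86, 0.35, 0.21 and 0.77 FPKM in the controls and 3.76, 0.82, 0.64 and 1.15 in the antibody libraries, antibody library 1 standing alone. Cd8a, of cytotoxic T cells, measured 0.7, 0.21, 0.12 and 0.62 against 2.23, 0.57, 0.55 and 0.74, Cd4 0.37, 1.04, 0.23 and 0.23 against 0.67, 0.23, 0.21 and 0.75, and Pdcd1, which encodes PD-1, 0.36, 0.1, 0.24 and 0.11 against 1.03, 0.16, 0.38 and 0.18. The groups overlapped for all of these. Ifng, which encodes interferon gamma, was listed at 0 in control 4, measured 0.13, 0.04 and 0.04 FPKM in controls 1 to 3 and 1.28, 0.21, 0.33 and 0.17 in the antibody libraries. For the 4 genes below the level for testing, the fit without that filter gave unadjusted p-values of 0.0375 for Cd8a, 0.955 for Cd4, 0.145 for Pdcd1 and 0.0186 for Ifng.

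Summed over the markers, T cell genes measured 8.96, 5.26, 3.52 and 5.33 FPKM in the controls and 19, 6.44, 5.81 and 7.3 in the antibody libraries, and cytotoxic genes 33.5, 12.4, 105.8 and 84.9 in the controls against 482.9, 256.8, 570.2 and 194.6. The cytotoxic sums did not overlap, and those of T cells did. The cytotoxic sums include the neighbouring granzyme genes above, which can share reads. Among these, Gzmg was far above Nkg7, Gzmb and Prf1 in each antibody library.

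Cd274, the target of the antibody by the sample titles, measured 5.83, 5.17, 3.47 and 4.5 FPKM in the controls and 15.5, 10.7, 7.16 and 13.6 in the antibody libraries. The groups did not overlap, but the difference did not pass (1.12 ± 0.30, adjusted p = 0.0762). Of 9 checkpoint genes tested none passed in limma, 2 were at an unadjusted p under 0.05, both higher, 5 were above 0 and the median was 0.24. Cxcl9 and Cxcl10, chemokines that attract CXCR3-bearing T cells, did not pass (1.25 ± 0.56 and 1.64 ± 0.63, adjusted p = 0.198 and 0.147). Cxcl10 measured 218, 49.8, 24.2 and 57.8 FPKM in the antibody libraries against 18.4, 12.4, 26.5 and 23.2 in the controls, so antibody library 3 lay among the controls. Ccl5, another chemokine of T cells, measured 6.29, 5.04, 4.98 and 5.79 against 18.1, 9.07, 5.48 and 12.5 (0.81 ± 0.23, adjusted p = 0.0819), and the groups overlapped. It had been picked from 13 CC chemokine and receptor genes, none of which passed in limma. Of these 13, 6 were above and 7 below 0, 4 were higher and 2 lower at an unadjusted p under 0.05, and the lowest was at -1.57. Their median was -0.10, and 0.64 without controls 1 and 2, with 11 above 0.

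**Figure D3:**
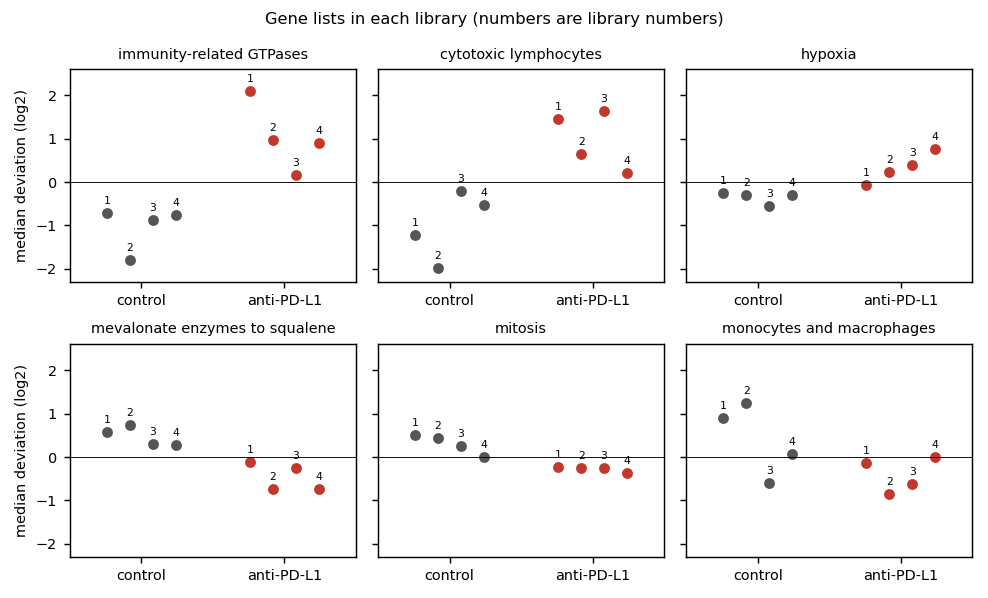
Median over the tested members of 6 lists of log2(FPKM + 1) minus each gene's mean over the 8 libraries, for control (grey) and anti-PD-L1 (red) libraries numbered as in the labels. The GTPase points do not overlap and range from -1.80 in control 2 to 2.10 in antibody library 1, whereas the macrophage points of controls 1 and 2, at 0.91 and 1.25, stand above all others.

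The gene with the firmest fall was Ctxn1, which encodes a small membrane protein, cortexin 1. It measured 42.4, 45.2, 38.6 and 40.3 FPKM in the controls and 24.9, 18.6, 19.96 and 19.1 in the antibody libraries with a log2 fold change of -0.99 ± 0.12 (adjusted p = 0.00166 in limma). The lowest control was at 38.6 FPKM and the highest antibody library at 24.9. It passed in 25 of 26 alternatives, the exception being the fit without controls 1 and 2, where its adjusted p was 0.0782.

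Pros1 encodes protein S, a ligand of the TAM receptor kinases with which phagocytes clear dying cells and damp inflammation. It measured 23.4, 26.4, 20.3 and 18.9 FPKM in the controls and 14.9, 14.2, 15.1 and 12.03 in the antibody libraries, with a log2 fold change of -0.62 ± 0.10 (adjusted p = 0.0207). Of the 5 TAM receptors and ligands it alone passed, all 5 were below 0 and the median was -0.42, or -0.25 without controls 1 and 2. Gas6, the other ligand, measured 19.4, 44.3, 2.5 and 3.3 against 1.62, 1.23, 2.25 and 1.34 (-2.07 ± 0.63, adjusted p = 0.0978). Its high values were in controls 1 and 2, and the fold change without them was -0.59. The receptors Tyro3 and Mertk had -0.31 ± 0.14 and -0.42 ± 0.31 (adjusted p = 0.18 and 0.434), with overlapping groups, and Mertk was at -0.25 without controls 1 and 2.

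Further genes that fell were of varied function. Dennd2a, a regulator of Rab GTPases, measured 19.3, 22.7, 20.8 and 18.6 FPKM in the controls and 12.9, 12.5, 14.7 and 10.6 in the antibody libraries, a log2 fold change of -0.65 ± 0.11 (adjusted p = 0.0269). Kcne3, an accessory subunit of potassium channels, measured 6.33, 6.22, 3.6 and 3.71 against 1.42, 1.36, 2.38 and 0.83 (-1.26 ± 0.23, adjusted p = 0.0369) and alone passed among 7 potassium channel genes tested. Controls 1 and 2 were its highest libraries. Ammecr1 had -0.50 ± 0.09 (adjusted p = 0.0347), with 8.54, 9.62, 7.65 and 8.57 FPKM in the controls and 6.09, 6.2, 5.73 and 5.16 in the antibody libraries. Mrps6, a protein of the small mitochondrial ribosomal subunit, had -0.56 ± 0.11 (adjusted p = 0.0369), with 48.7, 49.7, 42.8 and 38.9 against 30.3, 31.8, 31.1 and 27.2. It alone passed among 57 mitochondrial ribosome genes, whose median was -0.13, or -0.07 without controls 1 and 2. Memo1, named for its part in cell motility, had the smallest fall, -0.44 ± 0.09 (adjusted p = 0.0499), with 47.2, 43.6, 40.2 and 40.4 against 36.6, 30.96, 28.8 and 29.2 FPKM, and passed in 11 of 26 alternatives.

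Most enzymes of cholesterol synthesis had fold changes below 0, and 1 enzyme fell past the threshold in each of its parts. Idi1, which isomerises isopentenyl diphosphate, measured 9.22, 9.6, 9.27 and 4.22 FPKM in the controls and 3.46, 1.88, 1.87 and 1.12 in the antibody libraries, a log2 fold change of -1.55 ± 0.28 (adjusted p = 0.0338). Control 4 was well below the other controls and still above each antibody library. Fdps, the farnesyl diphosphate synthase, measured 174, 184, 123 and 118 against 73.2, 45.3, 80.4 and 36.3 (-1.38 ± 0.29, adjusted p = 0.0559). Acat2, at the entry of the pathway, had -1.25 ± 0.29 (adjusted p = 0.0634). Of 10 enzymes up to squalene 9 were below 0, 9 were at an unadjusted p under 0.05, 7 were separated and the median was -0.83, or -0.63 without controls 1 and 2.

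After squalene the picture was alike. Cyp51, the lanosterol demethylase, measured 41.2, 45.9, 39.2 and 30.5 FPKM in the controls and 23.5, 15.4, 18.8 and 12.4 in the antibody libraries, a log2 fold change of -1.14 ± 0.22 (adjusted p = 0.0436). Sqle, squalene epoxidase, measured 55.3, 60.1, 53.03 and 46.4 against 30.8, 20.9, 31.1 and 20.8 (-1.04 ± 0.22, adjusted p = 0.0559). Msmo1 had -1.04 ± 0.25 (adjusted p = 0.0634). Antibody libraries 2 and 4 were lower than 1 and 3 for Fdps, Acat2 and Sqle. All 11 enzymes after squalene were below 0, 10 were at an unadjusted p under 0.05, 7 were separated and the median was -0.86, or -0.64 without controls 1 and 2.

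Genes that control sterol supply went both ways. Srebf2, the transcription factor of the pathway, measured 68.2, 77.2, 62.8 and 63.97 FPKM in the controls and 45.7, 41.6, 59.1 and 50.1 in the antibody libraries (-0.47 ± 0.12, adjusted p = 0.0762). Insig2, which retains the SREBP complex in the endoplasmic reticulum, was higher without overlap, with 12.2, 10.2, 14.3 and 16.99 against 21.1, 18.9, 19.1 and 26.3 FPKM (0.64 ± 0.16, adjusted p = 0.07; 0.42 without controls 1 and 2). Nr1h2, the sterol-sensing receptor LXR beta, was higher too, with 46.8, 40.5, 43.95 and 52.01 against 59.8, 60.3, 63.8 and 66.6 (0.45 ± 0.11, adjusted p = 0.0634). None of the 12 genes tested passed in limma, and 3 were higher and 5 lower at an unadjusted p under 0.05. Their median was -0.14 with 8 below 0, and it turned to 0.19 with 5 below 0 without controls 1 and 2. In fatty acid synthesis none of 11 passed, 7 were lower and 1 higher at an unadjusted p under 0.05, and the median was -0.50. Elovl6, an elongase, measured 16.03, 16.8, 12.3 and 10.8 against 7.09, 5.41, 5.72 and 2.84 (-1.29 ± 0.26, adjusted p = 0.0559) and Fads2, a desaturase, 57.3, 61.5, 48.5 and 39.1 against 30.9, 23.5, 31.99 and 18.2 (-0.97 ± 0.22, adjusted p = 0.058).

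The sterol regulatory element, searched as TCACNCCAC on both strands, was present in 1.44% of the 27025 promoters and in 1 of 16 sterol enzymes with a window. That enzyme was Hmgcs1, a synthase early in the pathway, named for this match; its match ended 128 bases before the start. Hmgcs1 measured 60.8, 74.9, 54.6 and 59.3 FPKM in the controls and 41.5, 24.5, 30.7 and 23.1 in the antibody libraries (-1.06 ± 0.27, adjusted p = 0.0729). The stretch is shown with the match in capitals.
Hmgcs1, chr13:119690174-119690262, plus strand: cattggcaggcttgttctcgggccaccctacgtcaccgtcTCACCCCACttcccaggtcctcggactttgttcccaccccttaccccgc
Absence of these letters from the other 15 windows says nothing of the factor.

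The listed genes of cell division all had fold changes below 0, and 2 passed, both listed with their fall known. Hmgb3, a chromatin protein of proliferating cells, measured 67.9, 69.2, 57.6 and 43.7 FPKM in the controls and 33.95, 30.03, 32.5 and 23.9 in the antibody libraries, a log2 fold change of -0.95 ± 0.18 (adjusted p = 0.0369). Arhgap19, a GTPase-activating protein that acts in mitosis, measured 7.75, 8.16, 5.31 and 5.23 against 3.28, 3.28, 3.75 and 2.91 (-0.80 ± 0.16, adjusted p = 0.0436). For both, controls 1 and 2 were the highest libraries. Bub1b, of the spindle checkpoint, measured 33.8, 32.3, 29.3 and 23.5 against 18.1, 18.9, 21.7 and 17.4 (-0.61 ± 0.12) and was the gene nearest to the threshold on its far side (adjusted p = 0.0521), followed on the lower side by Evl (-0.56 ± 0.11, adjusted p = 0.0542), an actin regulator. Plk1, a mitotic kinase, had -0.74 ± 0.18 (adjusted p = 0.0688), and Mki67, the proliferation marker Ki-67, measured 64.7, 57.5, 51.9 and 42.8 against 32.95, 33.3, 25.98 and 28.5 (-0.82 ± 0.29, adjusted p = 0.129).

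All 30 mitosis genes were below 0, 2 passed, 27 were at an unadjusted p under 0.05, 27 were separated and the median was -0.56, or -0.39 without controls 1 and 2. Hmgb3 and Arhgap19 had been put on this list with their fall known, so their count is not support for it. All 30 DNA replication genes were below 0 as well, with a median of -0.55, or -0.39 without controls 1 and 2. None of them passed in limma, 27 were at an unadjusted p under 0.05 and 6 were separated. Tyms, thymidylate synthase, measured 20.04, 16.5, 16.4 and 11.1 FPKM in the controls and 11.9, 10.99, 10.3 and 6.72 in the antibody libraries (-0.63 ± 0.18, adjusted p = 0.0859), with control 4 below antibody library 1. E2f1, Fen1 and Cdc6 had -0.45 ± 0.13, -0.60 ± 0.18 and -0.73 ± 0.23.

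The cell cycle homology region, searched as TTTGAA on both strands, was present in 20.2% of the 27025 promoters and 14.3% of those of tested genes, and in 19 of 24 mitosis genes with a window. The 19 include Hmgb3 and Arhgap19, put on the list with their fall known. The interferon-induced GTPases, which had fold changes above 0, held the motif in 5 of 11 with a window. Among the genes that fell it was present in 3 of 11, Arhgap19, Hmgb3 and Pros1. The stretches of the mitosis genes that fell are shown with the match in capitals.
Arhgap19, chr19:41802134-41802219, minus strand: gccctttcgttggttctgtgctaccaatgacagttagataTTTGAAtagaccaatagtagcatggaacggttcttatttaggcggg
Hmgb3, chrX:71555755-71555840, plus strand: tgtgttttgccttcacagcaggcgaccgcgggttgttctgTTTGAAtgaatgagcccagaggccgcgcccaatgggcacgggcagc
The match ended 89 bases before the start in Arhgap19 and 116 in Hmgb3.

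Genes induced by low oxygen had fold changes above 0 and, on median, their highest values in antibody libraries 3 and 4. Ndrg1 measured 119.8, 102, 93.3 and 131 FPKM in the controls and 156, 184, 319 and 424 in the antibody libraries (1.17 ± 0.33, adjusted p = 0.0881). Higd1a and Egln1, the oxygen-sensing hydroxylase that marks HIF for degradation, also separated (0.85 ± 0.26 and 0.69 ± 0.21, adjusted p = 0.0947 and 0.0972), and P4ha1, a collagen hydroxylase, did not (0.76 ± 0.23, adjusted p = 0.0949). None of 18 hypoxia genes passed in limma, 9 were at an unadjusted p under 0.05, all 18 were above 0, and the median was 0.67 and 0.79 without controls 1 and 2. None of 16 glycolysis genes passed either, 4 were at an unadjusted p under 0.05, and all 16 were above 0 with a median of 0.29. Aldoa, an aldolase, measured 892, 866, 839.9 and 837 against 967, 1167, 1538 and 2007 FPKM (0.67 ± 0.24, adjusted p = 0.132). In oxidative phosphorylation 21 of 25 genes were below 0, none passed in limma, 10 were at an unadjusted p under 0.05, all lower, and the median was -0.14. Without controls 1 and 2 that median was -0.05, with 16 of the 25 below 0.

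Macrophage genes were highest in controls 1 and 2. Mrc1, a mannose receptor of tissue macrophages, measured 27.6, 40.04, 5.56 and 8.95 FPKM in the controls and 5.14, 2.71, 4.8 and 5.1 in the antibody libraries (-1.64 ± 0.52, adjusted p = 0.107; -0.60 without controls 1 and 2). Csf1r, the receptor that macrophages need to survive, measured 41.2, 53.2, 11.8 and 19.98 against 10.5, 6.85, 9.65 and 13.7 (-1.36 ± 0.44; -0.59 without them), and Adgre1, or F4/80, 14.4, 18.7, 3.52 and 6.79 against 3.81, 2.68, 2.97 and 4.21 (-1.22 ± 0.41; -0.44 without them). None of 18 monocyte and macrophage genes passed in limma, 9 were lower and 1 higher at an unadjusted p under 0.05, 16 were below 0, and the median was -0.91 with all controls and -0.29 without controls 1 and 2. Their summed FPKM was 1811.0, 2306.9, 583.1 and 974.6 in controls 1 to 4 and 492.1 to 1088.1 in the antibody libraries.

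Endothelial genes showed the same dependence, and matrix genes in part. The median of 12 endothelial genes was -0.54 with all controls and 0.04 without controls 1 and 2, and Pecam1, an endothelial junction protein, had -0.39 with all controls and 0.21 without them. None of these genes passed in limma, and 4 were lower at an unadjusted p under 0.05. Thbs2, an anti-angiogenic matrix protein, measured 19.8, 10.9, 6.34 and 5.87 FPKM in the controls and 2.32, 3.06, 2.82 and 1.02 in the antibody libraries (-1.73 ± 0.37, adjusted p = 0.0559; -1.15 without controls 1 and 2), and Postn, periostin, 189.6, 98, 62.7 and 49.6 against 28.01, 35.1, 24 and 14.9 (-1.80 ± 0.44; -1.16 without them). For both, each control lay above each antibody library. Col1a1, of type I collagen, measured 382, 477, 111 and 106 against 101, 82.9, 130.3 and 45.7 and overlapped (-1.35 ± 0.56, adjusted p = 0.169; -0.36 without controls 1 and 2). None of 15 fibroblast and matrix genes passed in limma, 5 were lower at an unadjusted p under 0.05, 11 were below and 4 above 0, and the genes named are among the lowest. The median of the list was -0.20, and -0.18 without controls 1 and 2.

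The 5 largest separated differences below 0 did not pass. C1qtnf3, a secreted relative of adiponectin, measured 18.1, 4.86, 3.61 and 2.04 FPKM in the controls and 0.12, 0.84, 0.94 and 0.04 in the antibody libraries (-2.14 ± 0.43, adjusted p = 0.0559; -1.39 without controls 1 and 2). Cbr2, a carbonyl reductase, Gpx3, a secreted glutathione peroxidase, and F13a1 had -2.48 ± 0.70, -2.43 ± 0.71 and -2.23 ± 0.60 (adjusted p = 0.084, 0.0915 and 0.0783), and their fold changes were -1, -0.92 and -0.82 without controls 1 and 2. F13a1, the coagulation factor XIII A chain of tissue macrophages, measured 72.3, 111, 11.7 and 11.97 against 3.92, 6.24, 10.02 and 6.1. The histone gene Hist1h2ai had -2.23 ± 0.62 (adjusted p = 0.0829) with all controls and -2.34 without controls 1 and 2. It was listed at 0 in antibody library 3 and has close copies that can share reads. Other tissue markers differed in single libraries: skeletal muscle genes summed to 333.6 FPKM in control 2 against 2.64 to 10 in the other 7 libraries, and red blood cell genes to 4071.7 in antibody library 4 against 78 to 497.9. The part of these tissues in the results above was not tested.

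Genes just outside the threshold are many, since 73 had an adjusted p between 0.05 and 0.06 in limma and 680 between 0.05 and 0.1. The 5 nearest on the higher side were Plk2 (0.77 ± 0.16), H2-T-ps (0.86 ± 0.18), Gbp2, Irf9 and Gm8909 (0.86 ± 0.18), each with an adjusted p of 0.0559. H2-T-ps and Gm8909 are class I-like sequences. On the lower side they were Bub1b, Evl, Elovl6, Btbd11 (-0.77 ± 0.16) and C1qtnf3. Just inside the threshold were Memo1 at 0.0499, and Nkg7, Cyp51 and Arhgap19 at 0.0436. Casp4, an inflammatory caspase, lay outside it (1.16 ± 0.29, adjusted p = 0.0729), and the groups did not overlap.

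By the titles anti-PDL1 was also given to exercised tumours, and the 8 libraries of that comparison, combination minus exercise, share none with the comparison above. Of the 30 genes, 29 had the same sign there, all 19 higher and 10 of 11 lower ones, against 6545 of 11868 tested genes, or 55.1%. Cyp51 was the exception, at 0.03. Without exercise library 1, 26 had the same sign, 18 of the higher and 8 of the lower ones. All 30 were smaller in size in exercised tumours, which follows in part from their having been chosen by the difference without exercise. The median of the 19 higher genes was 1.22 without and 0.65 with exercise, and that of the 11 lower genes -0.80 and -0.18. Without exercise library 1 the median of the lower genes was -0.10 in exercised tumours. No gene passed in combination minus exercise in limma, and 1618 were at an unadjusted p under 0.05. Without exercise library 1, 184 passed, among them 6 of the 30, namely H2-T10, H2-T22, Ctxn1, Psmb9, H2-K1 and H2-D1.

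The genes differed in how much of the difference was seen in exercised tumours. Psmb9 measured 14.99, 13.7, 23.8 and 14.3 FPKM in the 4 exercise libraries and 52.05, 46, 32.7 and 47.4 in the combination libraries, a log2 fold change of 1.38 ± 0.21 beside 1.71 ± 0.21 without exercise. H2-K1 had 0.85 ± 0.17 beside 0.95 ± 0.17, and Ctxn1 -0.79 ± 0.12 beside -0.99 ± 0.12. Idi1, in contrast, measured 9.36, 3.83, 3.9 and 4.63 in exercise and 3.99, 4.41, 4.04 and 5.89 in combination libraries, -0.14 ± 0.28 beside -1.55 ± 0.28. Exercise library 1 was far above the other 3 for Idi1, whose difference was 0.12 without it. Rnf31 was at 0.08 ± 0.08 beside 0.59 ± 0.08. The medians of the sterol lists were 0.02 and -0.01 in exercised tumours, that of mitosis 0.10 and that of the immunity-related GTPases 1.03. Exercise library 1 stood above the other 3 in the sterol and mitosis lists, and without it these medians were 0.16, 0.17, 0.30 and 0.75. Even without antibody, exercise libraries 2 to 4 lay below every control in these lists. The median deviation of mitosis was 0.57, -0.23, -0.29 and -0.13 in exercise libraries and 0.50, 0.44, 0.26 and -0.01 in controls. For enzymes up to squalene it was 0.80, -0.07, -0.04 and -0.03 against 0.57, 0.74, 0.29 and 0.27. The part of this lower starting level in the medians above was not tested.

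A difference between the antibody effects without and with exercise was tested as the interaction. No gene passed in limma, 1554 were at an unadjusted p under 0.05, and the adjusted p of the 30 genes was 0.364 or more. Without exercise library 1 the interaction had 223 genes that passed, among them 4 of the 30, Rnf31, Idi1, Hmgb3 and Cyp51 (adjusted p = 0.0403, 0.0296, 0.0496 and 0.0328). For Idi1 the difference was -1.41 ± 0.39 (adjusted p = 0.364) and for Rnf31 0.51 ± 0.12 (adjusted p = 0.364). A p that misses the threshold does not show that the antibody acted alike in both settings. Combination against anti-PD-L1 alone likewise had no gene that passed, with 468 at an unadjusted p under 0.05.

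**Figure D4:**
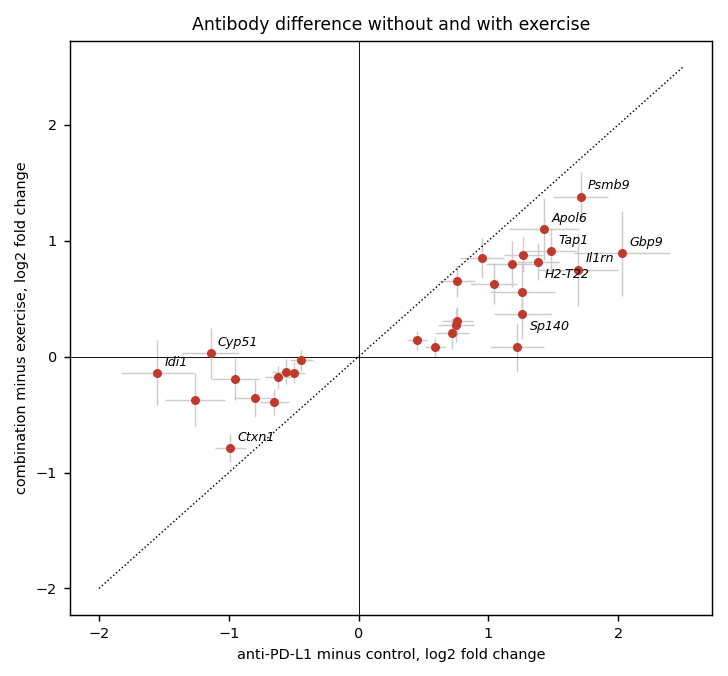
Log2 fold change (log2(FPKM + 1), bars are standard errors) of the 30 genes in anti-PD-L1 minus control (horizontal) and in combination minus exercise (vertical), with the dotted line at equal values. All 30 points lie nearer to 0 on the vertical axis than on the horizontal one, Psmb9 and Ctxn1 being close to the line and Idi1 at -1.55 and -0.14.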

How the data were processed

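The deposited values are FPKM computed by the authors, with 2 decimals. Per the submitters' processing notes, HISAT and Bowtie2 were used with GRCm38.p6, no role or version being stated. For the counting step and the library kit, nothing is given in the sources used here. Whole reads could not be recovered, so there was no count test, and the unknown depth allows no counting interval.

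One limma model (limma 3.58.1, R 4.3.3, trend and robust settings) was fitted to log2(FPKM + 1) of the 16 libraries with group as the only term, for the 11868 genes that reached 1 FPKM in 4 or more libraries. The Benjamini-Hochberg method was applied over all tested genes with a threshold of 0.05. Of the designs planned for counts and for normalized values, the latter was used. On simulated data with the same number of genes, the fit found 85% of genes shifted by 1 log2 unit and 97% of genes shifted by 2, and 5.7% of its calls were false. The simulated libraries had independent normal noise for each gene and no component shared by genes, unlike the real libraries. These shares therefore need not hold for the real data. The 8 libraries correlated at 0.957 to 0.985 within groups, and none were identical.

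The members and the 47 gene lists were chosen with earlier results of these data known. Named genes were those past the threshold, the 5 nearest outside it and the 5 largest separated changes in each direction, up to 4 members per described list, and a short panel; a few of these are not reported here. Positions and promoters come from RefSeq for GRCm38.p6, and 9337 tested genes had a promoter window. Alternatives were quantile normalization, centring on library medians, other filters on low values, a pseudocount of 0.1, no trend or robust setting, only the 8 libraries, a replicate block, library weights, and leaving out libraries. Leaving out exercise and combination libraries, and the alternatives of combination against exercise, were added after seeing the data. Tables were made with Python 3.11.15 and pandas 2.3.3.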

Additional observations from a re-analysis of the deposited data

Results flagged for a closer look

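Among 121 genes named in the text, each group of 4 libraries was checked for a library whose gap to the nearest other exceeded Dixon's critical value for 4 samples as a share of the group's range. Of 242 groups 17 met this. Chance gives about 1 in 20 for independent, normally distributed values, and that share need not hold for the FPKM of these named genes. In antibody library 1 the flagged values were the highest of their group: 7.19 FPKM for Apol6, 2.23 for Cd8a, 3.76 for Cd3g, 1.28 for Ifng and 49.94 for Cxcl9. In control 2 they were the lowest: 11.95 for Tap2, 5.42 for Igtp and 3.69 for Tgtp2. Control 4 was lowest for Idi1 at 4.22 and Fen1 at 18.9, control 1 lowest for Rnf31 at 8.25 and highest for Mmp9, a matrix protease, at 73.72. Antibody library 2 was lowest for Mrc1 at 2.71, antibody library 3 lowest for Casp4 at 16.62 and highest for Cd163, a scavenger receptor of macrophages, at 0.25, and antibody library 4 lowest for Tyro3 at 4.07 and highest for Gm8909 at 21.64. The reasons were not tested.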

How the results depend on the processing

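The 30 genes past the threshold became 117 under quantile normalization, 77 with centring on library medians, 8 without the filter on low values, 15 with the replicate block, 42 with only the 8 libraries (18 of the 30 kept), 835 with library weights and 4 without controls 1 and 2. The genes lost with only the 8 libraries were Pros1, Ogfr, Idi1, Tapbp, Ammecr1, Rnf114, Kcne3, Mrps6, Gbp9, Arhgap19, Nkg7 and Memo1. Their adjusted p in limma was then 0.0558 to 0.0851. Leaving out 1 of the 8 libraries gave 6 to 768, and leaving out 1 exercise or combination library, added after seeing the data, 18 to 317, the most without exercise library 1. With library weights 35.1% of the genes were higher, and without control 4 37%, against 63.3% in the reported fit. The causes were not tested. Deviations of same-numbered libraries from their group means correlated at -0.09, -0.16, 0.01 and 0.15, and those of other pairs at -0.2 to 0.2. With so few libraries these values cannot decide whether the numbers pair them. The interaction had 0 genes in the reported fit and 0 to 223 with 1 library left out, and combination against anti-PD-L1 had 0 in every fit. Combination against exercise, whose alternatives were added after seeing the data, had 0, but 2 under quantile normalization, 2 with centring, 2 with a mean of at least 5 FPKM, 222 with library weights and 0 to 184 with 1 library left out, the most without exercise library 1. Over all named genes and settings, 2458 values kept direction and side of the threshold, 264 newly passed, 251 no longer passed and 1 reversed, Pecam1 at 0.21 without controls 1 and 2. Of the list medians 673 moved by less than the spread between replicates and 11 by more.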

Other observations

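Some gene groups outside the main account are given here as values. Macrophage activation genes had a median log2 fold change of 0.36, or 0.80 without controls 1 and 2, and none of the 8 tested passed in limma, 3 being higher at an unadjusted p under 0.05. Nos2, the inducible nitric oxide synthase, measured 11.6, 10.1, 2.13 and 2.28 FPKM in the controls and 8.98, 14.1, 16.3 and 19.6 in the antibody libraries (1.31 ± 0.50, adjusted p = 0.148; 2.25 without controls 1 and 2). Acod1, which makes itaconate, measured 1.62, 1.25, 0.99 and 1.02 against 5.58, 6.3, 0.95 and 2.61 (0.96 ± 0.37, adjusted p = 0.146). Both overlapped, while the macrophage markers above had a median of -0.91.

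Sensors of nucleic acids had a median of 0.57, with 4 of 10 higher at an unadjusted p under 0.05 and none past the threshold in limma. Ddx58, which encodes the RNA sensor RIG-I, measured 5.21, 5.69, 8.94 and 7.86 against 19.2, 13.3, 8.08 and 11.2 FPKM (0.79 ± 0.25, adjusted p = 0.101; 0.51 without controls 1 and 2). Immediate early and heat shock genes had a median of 0.52 without exercise and -0.03 in exercised tumours. Dusp1, a phosphatase of that list, measured 16.8, 20.8, 11.1 and 25.03 against 31.9, 29.5, 50.6 and 59.5 without overlap (1.17 ± 0.38, adjusted p = 0.109), and -0.05 ± 0.38 in exercised tumours. The difference between these did not pass as an interaction (adjusted p = 0.377).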
